A study of Homo sapiens with 9 samples.

Results

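Unperturbed A673 cells were compared in the 2 states that served as controls in one experiment: cells held in DMSO, and cells transfected with a control siRNA. A673 is an established line of Ewing sarcoma, a tumour driven by the fusion gene EWS/FLI. The members are the 2 arrays whose titles name DMSO and the 2 whose titles name the control siRNA, which is 4 of the 9 arrays, and they were compared over all 9100 genes tested of the 22283 probe sets. The DMSO cells were treated with 0.01% DMSO for 24 hours. The control siRNA cells were resuspended in medium with 5 nM siRNA and a transfection reagent and kept there for 48 hours. Every culture was grown in RPMI 1640 medium with fetal calf serum and antibiotics, and RNA was taken near confluence. The other arrays are 2 of EZH2 siRNA no.2 and 1 of a further EZH2 siRNA with no number in its title (here the unnumbered EZH2 siRNA), handled as the control siRNA was, and 2 of cells treated with 100 nM trichostatin A (TSA), a histone deacetylase inhibitor, for 24 hours. The siRNA, the reagent, the resuspension, the solvent and the hours all differ between DMSO and control siRNA, so their effects cannot be told apart. The study includes no untreated cells, and no source used here gives the control siRNA's sequence.

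Transfection brings double-stranded RNA and lipid or polymer carriers into cells, and double-stranded RNA is known to be sensed by innate receptors that switch on interferon genes. Cells that are resuspended and replated also pass through a change of attachment and density, to which the co-activator YAP and its partners of the TEAD family respond. Nutrients, sterols and metal ions in the medium are read by separate sensors: ATF4 drives amino acid synthesis genes when amino acids run short, SREBP factors drive sterol synthesis when sterols run short, and MTF1 drives metallothioneins when free zinc is high. DMSO is a common solvent for small molecules.

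The arrays report MAS5 signal, a linear brightness value per probe set. All 9 arrays had trimmed means of 500.1 to 500.2, while the median signal was 125 and 148 in the control siRNA arrays (replicate 1 and 2) and 139.8 and 151 in the DMSO arrays. The hybridisation controls split the arrays by replicate number: their mean log2 signal was 9.90 in both arrays of replicate 1, and 10.27 and 10.21 in those of replicate 2. The 3' to 5' signal ratio of ACTB, a sign of RNA integrity, was 1.03 and 1.28 in control siRNA and 1.14 and 1.29 in DMSO. Replicates are titled biological, though no label speaks of separate cultures; a p here therefore covers the spread between these arrays alone, which may be technical. With 2 arrays in each group, the number of arrays limits the precision.

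The cell identity matched the label. All 13 of the Ewing sarcoma markers named on the array lay above the filter on low signal (53.3), led by the surface antigen CD99, and their summed signal was 60236 to 71494 in control siRNA and 62404 to 64534 in DMSO. None of the 6 epithelial markers passed the filter, and they summed to 109 to 123 in control siRNA and 96.7 to 158 in DMSO. The 5 blood cell markers summed to 203 to 219 and 258 to 347, and the 6 endothelial markers to 177 to 200.1 and 178 to 215. The 7 fibroblast markers, which Ewing cells also express in part, summed to 7464 to 7711 in control siRNA and 9608 to 10236 in DMSO, mostly through the collagen chain COL1A2. The 5 neuronal markers summed to 8554 to 10187 and 9306 to 10231. Single markers gave −0.08 for PECAM1 (endothelium), 0.45 for HBB (red cells), 0.28 for CD3E (T cells), 0.17 for SNAP25 and 0.48 for MAP2 (neurons), as log2 differences with SE of 0.31 to 0.44. The part of other cell types in the differences below was not tested. EZH2, the histone methyltransferase that the other arms target, gave signals of 1130.1 and 1172 in control siRNA and 990.1 and 861 in DMSO, a log2 difference of −0.31 (SE 0.32).

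No gene passed the threshold between the 2 control states. The limma fit over all 9 arrays called 0 of 9100 genes at an adjusted p under 0.05 (0%), with a lowest adjusted p of 1.00. At an unadjusted p under 0.05 it listed 418 genes, of which 310 (3.41%) were higher in DMSO and 108 (1.19%) lower. This cut gives 455 genes by chance; the count was 668 with the replicate number as a block, 481 with only the 4 arrays fitted and 519 without control siRNA replicate 1, so it lies on either side of 455. The median difference, DMSO minus control siRNA, was 0.05 on the log2(signal + 25.1) scale, and 56.6% of genes had a positive value. Of the listed genes 74.2% were higher in DMSO. With each array set to the same median signal this share was 53.6% and the median difference −0.04; after quantile normalization they were 68.0% and 0.02.

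The groups of 2 did not overlap for 1942 genes higher in DMSO (21.3%) and 1177 lower (12.9%). Of these, 110 (1.21%) were at least 2-fold higher and 35 (0.385%) at least 2-fold lower. With 2 arrays on each side, 0.333 is the smallest p that an exact permutation test (two-sided) allows. It is also the share of genes expected by chance to lack overlap in either direction. The shares of 21.3% and 12.9% together lie near it, so these totals are not a result by themselves. The gene groups below are described by their counts against these backgrounds, and no single gene among them passed the adjusted test.

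Lower in DMSO were the metallothioneins, small cysteine-rich proteins that bind zinc and copper, and SLC30A1, the zinc exporter of the plasma membrane. These 8 genes were picked out by their values, so they get no test as a group. MT1X gave signals of 4254 and 1490.4 in control siRNA against 569 and 619.7 in DMSO, a log2 difference of −2.04 (SE 0.49, n = 2 and 2). MT2A, the brightest member, gave 8191 and 3185 against 1842 and 1926, or −1.43 (SE 0.39). SLC30A1 gave 655 and 305 against 18.5 and 193, or −2.28 (SE 0.70). Its DMSO value of 18.5 (replicate 1) is dim, under the added value of 25.1 and the filter of 53.3. Without DMSO replicate 1 the difference was −1.12. In all 3 genes both DMSO arrays lay below both control arrays, and replicate 1 of the control siRNA was the highest of the 9 arrays for MT1X and MT2A. In RNA from whole cultures, fewer cells with a transcript and less of it per cell cannot be told apart.

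**Figure D1:**
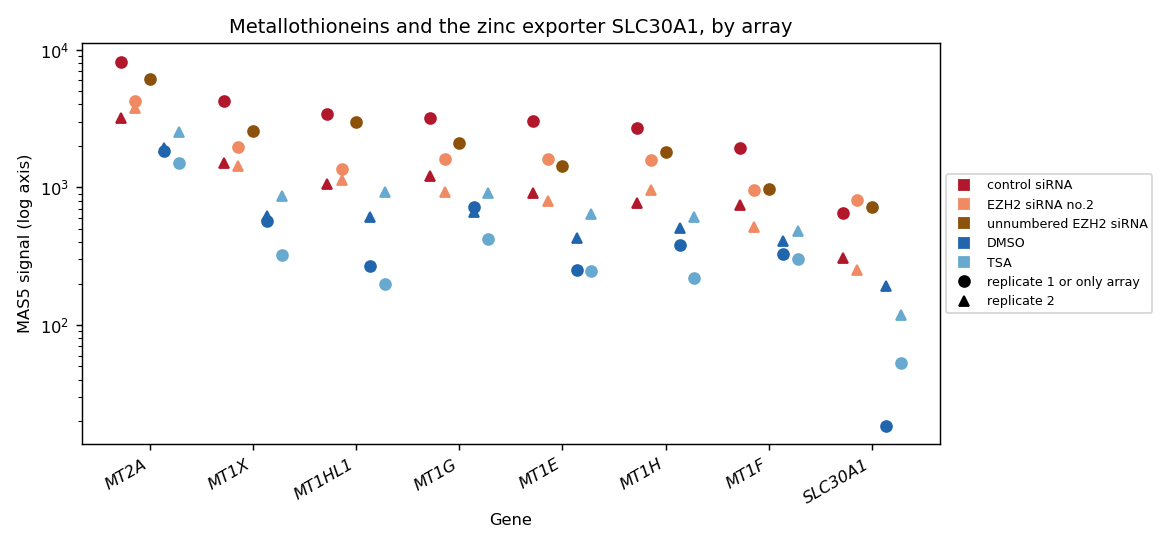
MAS5 signal (log axis) of 7 metallothionein genes and SLC30A1 on each of the 9 arrays, coloured by treatment; circles are replicate 1 or the only array, triangles replicate 2. For each of the 8 genes the 4 arrays of DMSO and TSA sit below all 5 siRNA arrays, for example SLC30A1 at 18.5 to 193 against 251 to 804.

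MT1E, MT1F, MT1G, MT1H and MT1HL1 behaved alike, with log2 differences of −2.25, −1.65, −1.48, −1.65 and −2.15. The size depended on the replicate: over the 8 genes the difference was −3.96 to −2.11 in replicate 1 and −1.23 to −0.56 in replicate 2, and −1.76 to −0.75 with replicate 1 of the control siRNA left out. Of the 11 probe sets of these genes above the filter, 10 are of a type whose probes can bind several near-identical transcripts, so the metallothionein members are not independent readings. SLC30A1 is read by a probe set of its own sequence.

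The same genes separated all arrays by handling. In TSA (24 hours) against EZH2 siRNA no.2 (48 hours), which share no array with the pair above, the 8 genes were lower in TSA by log2 values of −2.18 to −0.83. All 8 genes, and all 11 of their probe sets, had lower signals in the 4 arrays of DMSO and TSA than in any of the 5 siRNA arrays, a pattern that 0.549% of all genes showed (0.967% showed the opposite). The DMSO and control siRNA arrays among them had also picked these genes, so this share is a description and not a test. SLC30A1 gave 53.3 and 118 in TSA, 804 and 251 in EZH2 siRNA no.2 and 723 in the unnumbered EZH2 siRNA. The difference between both contrasts was not past the threshold for any of the 8 genes, with unadjusted limma p of 0.210 to 0.986.

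Other zinc genes did not share the pattern over all 9 arrays. Of the zinc transporter genes, SLC39A8 and SLC39A1 were lower in DMSO without overlap (log2 −0.42 and −0.23). For both, the arrays of DMSO and TSA overlapped with those of EZH2 siRNA no.2. SLC39A14 and SLC30A9 were higher in DMSO without overlap (0.41 and 0.28). MTF1, the zinc-sensing factor that drives metallothioneins, gave 216 and 284 in control siRNA and 145 and 388 in DMSO (log2 −0.04). MT3, the metallothionein of brain, gave 114 and 162 against 98.9 and 178. SLC39A4, a zinc importer, was higher in DMSO, at 1227 and 1298 against 789 and 675 (log2 0.77), but TSA (584 and 842) overlapped with EZH2 siRNA no.2 (527 and 683). A dim second probe set of MT1G, with signals of 26.2 to 59.8 in the 4 arrays, gave 0.46 and goes against the bright one.

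The wider list of metallothioneins and targets of the oxidative stress factor NRF2 held 21 tested genes, with a median of −0.11. Without overlap 9 were lower in DMSO (12.9% of all genes) and 2 higher (21.3%). Its 7 genes at an unadjusted limma p under 0.05 were 6 metallothioneins and SLC30A1, all lower (1.19% of all genes were lower at this cut). The other 14 members had log2 differences of −0.34 to 0.44, 6 above 0 and 8 below. KEAP1 and TXN were lower without overlap (−0.27 and −0.11), and FTL and ME1 higher (0.23 and 0.44). Among the best known NRF2 targets the difference was −0.10 for NQO1 (quinone reductase), 0.07 for GCLM (glutathione synthesis), 0.06 for TXNRD1 (thioredoxin reductase) and −0.34 (SE 0.60) for HMOX1 (haem oxygenase).

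The 250 bases before the start of 4 of these genes are shown with the core letters of the metal response element, which MTF1 binds. Capitals mark TGCACNC or TGCGCNC on either strand, and no matches overlap. Sequences are from RefSeq, build GRCh38.p14: MT2A at chr16:56608334-56608583 (plus strand), MT1X at chr16:56682220-56682469 (plus), MT1H at chr16:56669564-56669813 (plus) and SLC30A1 at chr1:211579162-211579411 (minus).
MT2A: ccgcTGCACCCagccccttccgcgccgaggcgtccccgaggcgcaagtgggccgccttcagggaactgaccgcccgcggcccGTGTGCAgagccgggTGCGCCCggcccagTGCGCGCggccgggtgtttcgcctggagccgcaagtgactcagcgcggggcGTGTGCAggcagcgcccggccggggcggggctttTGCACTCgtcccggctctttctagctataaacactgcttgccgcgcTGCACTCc
MT1X: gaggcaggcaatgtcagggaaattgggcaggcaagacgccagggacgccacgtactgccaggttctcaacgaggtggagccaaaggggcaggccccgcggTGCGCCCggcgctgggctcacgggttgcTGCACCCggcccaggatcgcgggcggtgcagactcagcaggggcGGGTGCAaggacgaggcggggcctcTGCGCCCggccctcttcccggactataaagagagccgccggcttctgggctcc
MT1H: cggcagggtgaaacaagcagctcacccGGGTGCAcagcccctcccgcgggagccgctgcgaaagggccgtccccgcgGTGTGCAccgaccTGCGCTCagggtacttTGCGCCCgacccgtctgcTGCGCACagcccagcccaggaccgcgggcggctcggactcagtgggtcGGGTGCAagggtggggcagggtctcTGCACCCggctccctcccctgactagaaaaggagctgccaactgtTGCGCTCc
SLC30A1: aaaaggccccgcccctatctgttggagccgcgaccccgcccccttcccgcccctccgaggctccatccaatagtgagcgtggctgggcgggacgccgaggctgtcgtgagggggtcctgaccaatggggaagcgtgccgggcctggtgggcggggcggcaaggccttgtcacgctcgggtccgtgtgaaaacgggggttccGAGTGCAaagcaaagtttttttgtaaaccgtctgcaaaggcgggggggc
MT1H held 8 matches, MT2A 7, MT1X 4 and SLC30A1 1. Of 27305 promoters of this length 24.7% held at least 1 match and 1.56% held 3 or more; of the 7468 tested genes with a sequence the shares were 33.0% and 2.14%. In the list of metallothioneins and NRF2 targets 10 of 16 members with a sequence held a match and 3 of 16 held 3 or more. A match is a description of these letters, not a bound site.

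A second group was higher in DMSO: genes of the amino acid response, which ATF4 drives. PCK2, mitochondrial phosphoenolpyruvate carboxykinase, gave signals of 240.0 and 180.2 in control siRNA against 754 and 499.7 in DMSO, a log2 difference of 1.45 (SE 0.34). ASNS, asparagine synthetase, gave 1606 and 804 against 3302 and 2558, or 1.33 (SE 0.36). TRIB3, a pseudokinase that feeds back on ATF4, gave 920.4 and 368 against 1389 and 1588, or 1.31 (SE 0.37). Both DMSO arrays were above both control arrays in each, and the controls differed from each other by more than the DMSO arrays did for ASNS and TRIB3.

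Of the list's 30 tested genes 25 had positive differences and 17 were higher without overlap, against 21.3% of all genes, while 1 was lower. At an unadjusted limma p under 0.05 were 7 of the 30, all higher (3.41% of all genes were higher at this cut). Besides those above they were DDIT4 (an inhibitor of mTORC1, log2 1.12), CTH (cystathionine gamma-lyase, 1.04), CHAC1 (a glutathione-degrading enzyme, 0.85) and AARS1 (alanyl-tRNA synthetase, 0.60). The list's median was 0.40, with 0.24 in replicate 1 and 0.47 in replicate 2. ATF4 itself gave 0.29 (SE 0.26), the serine synthesis enzymes PHGDH and PSAT1 gave 0.51 and 0.50, and the 5 genes below 0 were ATF3 (−0.02), NARS1 (−0.09), SLC7A5 (−0.23), STC2 (−0.25) and CEBPG (−0.28).

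**Figure D2:**
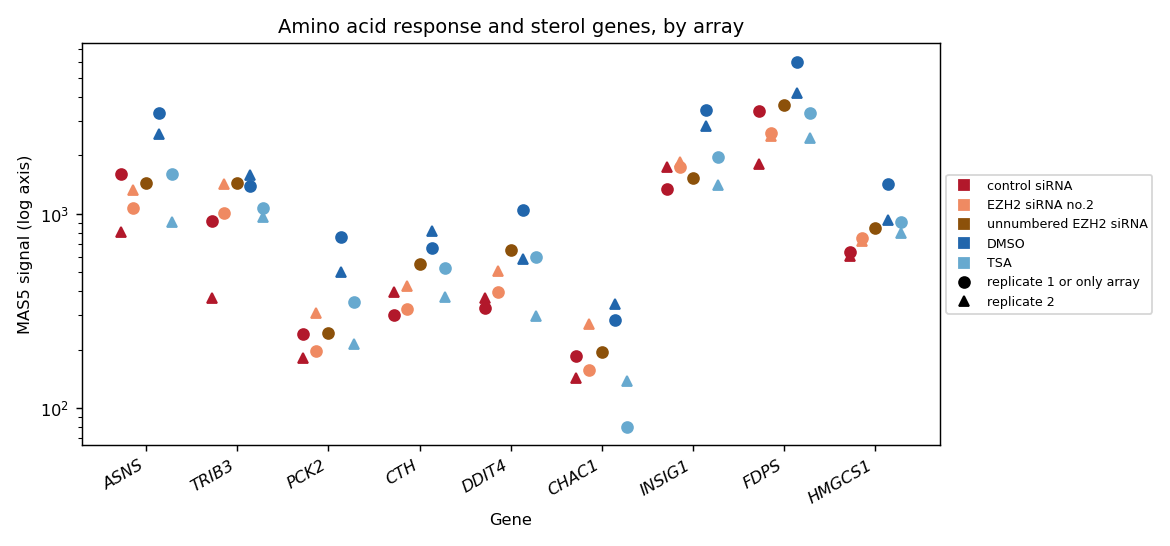
MAS5 signal (log axis) of 6 amino acid response genes and 3 sterol genes on each of the 9 arrays, coloured by treatment; circles are replicate 1 or the only array, triangles replicate 2. For ASNS, PCK2, CTH and CHAC1 both DMSO arrays lie above all 7 others, for example ASNS at 3302 and 2558 against 804 to 1606; for TRIB3 and DDIT4 they do not.

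Some of the group was highest in DMSO among all treatments. In 8 of the 30 genes, CHAC1, ASNS, PHGDH, SHMT2, MTHFD2, CTH, SARS1 and PCK2, both DMSO arrays were above all 7 other arrays, TSA included; 3.38% of all genes showed this (2.42% had both DMSO arrays below all others). In TSA against EZH2 siRNA no.2 the list's median was −0.10, with 10 of 30 genes positive, 0 higher without overlap (12.9% of all genes) and 11 lower without overlap (11.6%). ASNS gave 1596 and 907 in TSA against 1070 and 1328 there, and CHAC1 80.3 and 139 against 157 and 272. TSA and the EZH2 siRNA each differ from their own control as well, so neither arm is unperturbed.

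The 250 bases before ASNS (GRCh38.p14, chr7:97872409-97872658, minus strand) and CHAC1 (chr15:40953221-40953470, plus) are shown as examples of the 4 list members that hold the letters of a composite element for ATF4 and C/EBP. Not shown are AARS1 and ATF3, of which ATF3 was not higher in DMSO. Capitals mark TGATGNAA on either strand.
ASNS: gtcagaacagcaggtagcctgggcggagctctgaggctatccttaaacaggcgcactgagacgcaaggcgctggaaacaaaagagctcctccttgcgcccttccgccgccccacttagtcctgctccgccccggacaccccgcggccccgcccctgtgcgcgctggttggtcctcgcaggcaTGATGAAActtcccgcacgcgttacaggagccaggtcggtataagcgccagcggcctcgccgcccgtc
CHAC1: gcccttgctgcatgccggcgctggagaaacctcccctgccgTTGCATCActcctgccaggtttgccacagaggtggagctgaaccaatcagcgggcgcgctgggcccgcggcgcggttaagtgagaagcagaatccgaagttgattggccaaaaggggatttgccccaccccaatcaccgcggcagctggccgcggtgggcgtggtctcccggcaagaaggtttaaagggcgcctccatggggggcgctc
These letters stood in 4 of the 27 list members with a sequence (CHAC1, ASNS, ATF3 and AARS1) in 1.63% of the 7468 tested genes with one and in 3.19% of all 27305 promoters. PCK2, TRIB3, CTH and DDIT4 held no match in this window.

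Sterol synthesis genes were higher in DMSO as well. INSIG1, the sterol-regulated anchor of SREBP, gave signals of 1347 and 1747 in control siRNA against 3406 and 2816 in DMSO, a log2 difference of 1.00 (SE 0.26). FDPS (farnesyl diphosphate synthase) gave 3355 and 1809 against 6048 and 4149, or 1.02 (SE 0.32). HMGCS1 (HMG-CoA synthase) gave 634 and 602 against 1428 and 928, or 0.87 (SE 0.27). The groups did not overlap for any of the 3, and 2 further probe sets of INSIG1 gave 1.43 and 1.12. A second probe set of HMGCS1, with a mean signal of 765, gave 0.39.

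All 18 tested sterol genes had positive differences (56.6% of all genes), 9 of them without overlap (21.3% of all genes). The median was 0.32 (0.49 in replicate 1, 0.28 in replicate 2). EBP, a sterol isomerase, was the other member at an unadjusted limma p under 0.05 (0.56). Over all genes 3.41% were higher at this cut. SREBF2, which encodes the main factor of the pathway, gave 0.23 (SE 0.39). For 6 genes, HMGCS1, FDPS, TM7SF2, HSD17B7, EBP and INSIG1, both DMSO arrays were above the other 7 (3.38% of all genes). In TSA against EZH2 siRNA no.2 the median was −0.06, with 6 of 18 positive. Among 17 fatty acid and phospholipid genes the median was 0.11, with 5 higher (21.3% of all genes) and 0 lower without overlap. That median was 0.03 with the arrays set to the same median, 0.04 without control siRNA replicate 1, 0.35 without control siRNA replicate 2, 0.38 without DMSO replicate 1 and 0.17 without DMSO replicate 2. PCYT2, which makes the head group donor for phosphatidylethanolamine, gave 564 and 560.4 against 1061 and 825 (0.71), and FASN, fatty acid synthase, 3405 and 6256 against 6766 and 7228 (0.60).

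Chaperones of the endoplasmic reticulum leaned the same way with smaller differences. Of 19 genes of the unfolded protein response, 16 had positive values (56.6% of all genes) and 10 were higher without overlap (21.3%). The median was 0.31 (0.09 and 0.46 in the replicates). MANF gave 1214 and 903 in control siRNA against 1684 and 1684 in DMSO (log2 0.67), CRELD2 gave 2337 and 1562 against 2954 and 2890.1 (0.61), and HSP90B1, the chaperone GRP94, gave 2767 and 2092 against 3678 and 3352 (0.54). A second probe set of HSP90B1, with a mean signal of 763, gave −0.17. HSPA5, the chaperone BiP, overlapped between groups, at 5845 and 4137 against 5802 and 6432. In TSA against EZH2 siRNA no.2 the median was −0.25, with 2 of 19 positive.

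Another group, targets of YAP and TEAD, was lower in DMSO, and in TSA too. AMOTL2, a junction protein and YAP target, gave signals of 884 and 1169 in control siRNA against 595 and 539 in DMSO, a log2 difference of −0.82 (SE 0.25). NT5E, the ectonucleotidase CD73, gave 297 and 254 against 134 and 175, or −0.75 (SE 0.28). CCN2 (connective tissue growth factor) gave 252 and 109.5 against 57.1 and 104, or −0.91 (SE 0.39). The groups did not overlap for any of these, though the CCN2 groups nearly touch.

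Of the 19 tested YAP/TEAD targets 14 had negative differences, 11 were lower without overlap (12.9% of all genes) and 1 was higher, with a median of −0.34. The 4 at an unadjusted limma p under 0.05 were AMOTL2, NT5E, CCN2 and F3 (tissue factor, −1.27, SE 0.55). Over all genes 1.19% were lower at this cut. CCN1 gave −0.44 and FJX1 −0.72, whereas MYOF gave 0.66 and AXL 0.35. In TSA against EZH2 siRNA no.2 the median was −0.38, with 14 of 19 negative and 8 lower without overlap (11.6% of all genes). The log2 differences there were −0.73 for AMOTL2, −0.60 for NT5E, −1.53 for CCN2, −1.74 for F3 and −1.23 for CCN1. AMOTL2 and NT5E were lower in the 4 arrays of DMSO and TSA than in all 5 siRNA arrays (0.549% of all genes). YAP1 and the DNA-binding partners TEAD1 and TEAD4 gave −0.39, 0.02 and 0.00.

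Immediate early and AP-1 genes, which respond to serum and growth factors within minutes, had 19 of 28 negative values and a median of −0.13, and 25 of 28 negative and −0.27 in TSA against EZH2 siRNA no.2. JUN gave 331 and 227 in control siRNA against 138 and 196 in DMSO (log2 −0.66). FOS (0.30) and MYC (0.18) had positive values. Integrins and actin cytoskeleton genes had a median of −0.09. The focal adhesion protein ZYX gave 934 and 922 against 478 and 679.9 (−0.68), and the integrin subunit ITGB1 gave 3843 and 3220 against 4546 and 5857 (0.55). A second probe set of ZYX, with a mean signal of 710, gave −0.21.

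**Figure D3:**
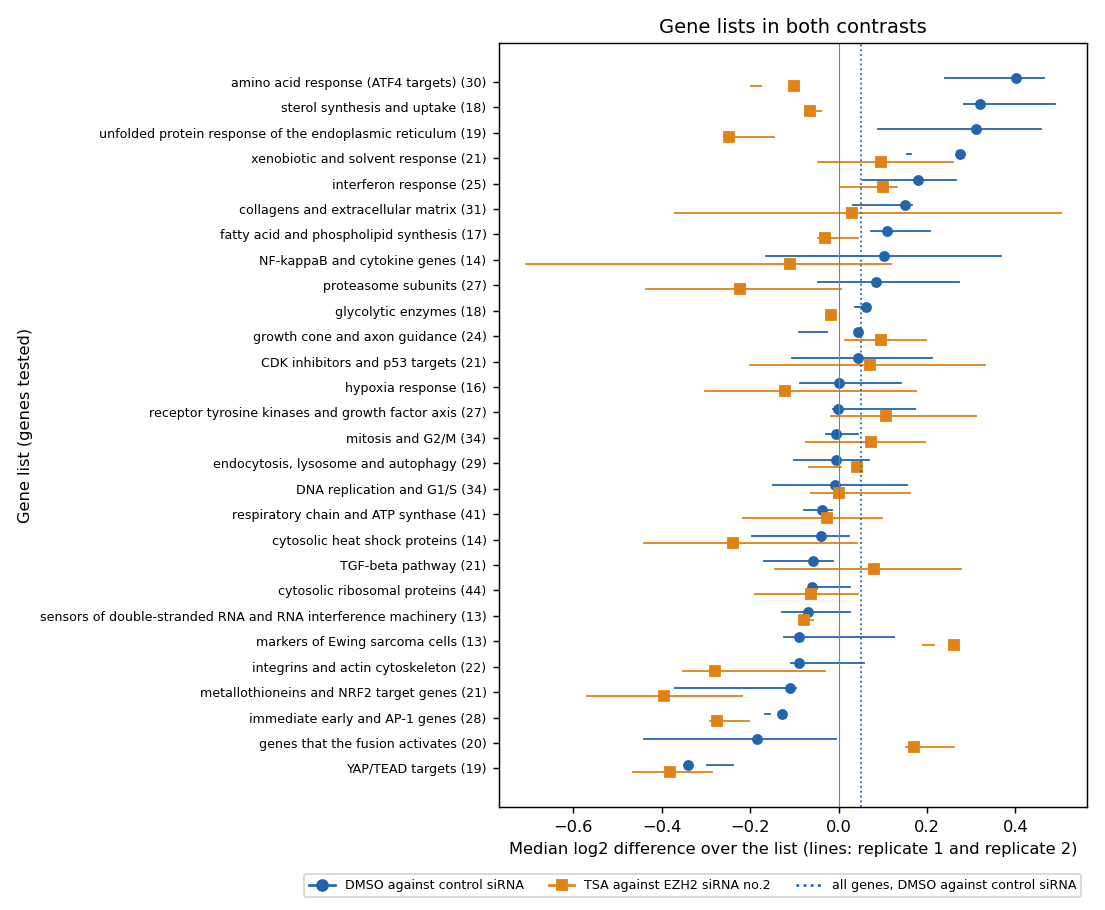
Median log2 difference of each gene list with 10 or more tested genes (numbers in brackets), for DMSO against control siRNA (circles) and TSA against EZH2 siRNA no.2 (squares); lines join the medians of replicate 1 and replicate 2, and the dotted line is the median of all genes (0.05). Amino acid, sterol and unfolded protein response lists lie at 0.31 to 0.40 for DMSO but below 0 for TSA, while YAP/TEAD targets lie at −0.34 and −0.38.

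Interferon response genes, as a list, did not lean towards the transfected cells. Of 25 interferon response genes 15 had values above 0, that is higher in DMSO (56.6% of all genes). Without overlap 9 were higher (21.3% of all genes) and 2 lower (12.9%). The median was 0.18, and −0.06 without replicate 1 of the control siRNA. BST2 (tetherin) gave signals of 21.0 and 18.4 in control siRNA against 138 and 75.1 in DMSO (log2 1.51, SE 0.48), with the control values below the filter. PSMB8, an immunoproteasome subunit, gave 265 and 276 against 882 and 329 (0.94), where 1 DMSO array carries most of the difference. The antiviral genes ISG15, IFIT3 and OAS1 gave −0.26, −0.26 and 0.30, each with an SE of 0.28 to 0.31. Over 13 sensors of double-stranded RNA and components of the RNA interference machinery the median was −0.07. It was 0.06 or 0.09 without DMSO replicate 1 or control siRNA replicate 2. Of these 13 genes 3 were higher without overlap (21.3% of all genes) and 4 lower (12.9%). TARBP2, the partner of Dicer, gave 1202 and 1209 against 1003 and 832 (−0.39), and DROSHA, which cuts miRNA precursors, gave 824 and 483 against 823 and 929.6 (0.45).

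Of the lists tied to inflammation, uptake and the solvent, the last leaned higher in DMSO. NF-kappaB and cytokine genes had 10 of 14 positive values (56.6% of all genes) and a median of 0.10. Without overlap 3 were higher (21.3% of all genes) and 1 lower (12.9%). The 2 with the smallest p, TNF and PTGS2, gave dim signals of 12.8 to 107 and 19.5 to 73.1. Endocytosis, lysosome and autophagy genes had a median of −0.01 over 29 genes; ATP6V0D1, a subunit of the proton pump, gave 2382 and 1980.5 against 1620 and 1394 (−0.52). Xenobiotic and solvent response genes had 17 of 21 positive values (56.6% of all genes). Without overlap 9 were higher (21.3% of all genes) and 2 lower (12.9%). The list's median was 0.27, against 0.05 for all genes, and 0.11 without replicate 1 of the control siRNA. None of its members was at an unadjusted limma p under 0.05, and in TSA against EZH2 siRNA no.2 the median was 0.10 with 13 of 21 positive. In that list the oestrogen hydroxylase CYP1B1 gave 101 and 81.7 against 200.04 and 144 (0.75), and the aldo-keto reductase AKR1B10 gave 119 and 93.8 against 69.6 and 40.2 (−0.73).

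The medians of growth and housekeeping programmes lay near 0. The median was −0.01 for both DNA replication (34 genes) and mitosis (34 genes), −0.06 for ribosomal proteins (44 genes), −0.04 for the respiratory chain (41 genes), 0.06 for glycolytic enzymes (18 genes), 0.00 for the hypoxia response (16 genes) and 0.04 for CDK inhibitors and p53 targets (21 genes); the last of these turned to −0.04 with arrays set to the same median, as glycolysis did, and the hypoxia list to −0.09. Without overlap 11 of 41 respiratory chain genes were lower in DMSO and 4 higher. Of 44 ribosomal proteins 10 were lower without overlap and 3 higher. The shares over all genes were 12.9% lower and 21.3% higher. For DNA replication the median was −0.15 in replicate 1 and 0.16 in replicate 2. That of CDK inhibitors and p53 targets was −0.22 without control siRNA replicate 1 and 0.33 without control siRNA replicate 2. Single members still stood apart. BIRC5 (survivin) gave 2503 and 1817 in control siRNA against 4506 and 3276 in DMSO (log2 0.84), and CDC45, a replication helicase subunit, gave 737 and 496 against 1034 and 1120.03 (0.80). Further probe sets of BIRC5 gave 0.25 and 0.32, with mean signals of 1272 and 946. BNIP3, a mitophagy receptor induced by hypoxia, gave 877 and 842 against 1915 and 1185 (0.79), while MDM2, the p53 ligase, gave 122 and 177 against 79.7 and 64.1 (−0.84). A second BNIP3 probe set gave 0.50, and dimmer ones of MDM2 gave 0.02, −0.01 and 0.49. The ribosomal proteins with the smallest p were RPL29 (−0.29) and RPL8 (0.28), and those of the respiratory chain UQCRC2 (0.36) and UQCRC1 (−0.32), with SE of 0.23 to 0.27. A second probe set of UQCRC2, with a mean signal of 2286, gave −0.14. PFKL and ENO2, glycolytic enzymes, gave 0.87 and 0.56, and the peptide hormone ADM −0.62. FEN1, a flap endonuclease of replication, gave −0.46, and the mitotic kinase AURKB 0.46. A second probe set of FEN1, with a mean signal of 2848, gave 0.05.

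With 1 of the 4 arrays left out, 17 of the 28 lists with 10 or more tested genes turned the sign of their median, all of them with medians within 0.18 of 0. The 11 lists that kept their sign were the amino acid, sterol, unfolded protein, fatty acid, xenobiotic and solvent, matrix, YAP/TEAD, metallothionein and NRF2, immediate early, fusion-activated and respiratory chain lists.

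The proteasome list, which includes its regulator NFE2L1, had 20 of 27 values above 0 and a median of 0.08, which became −0.02 with the arrays set to the same median and −0.04 without control siRNA replicate 2. In TSA against EZH2 siRNA no.2 only 1 of 27 was positive, with a median of −0.22. NFE2L1, the factor that drives proteasome genes, gave 1323 and 1150 in control siRNA against 1641 and 1917 in DMSO (log2 0.52). Among 14 cytosolic heat shock genes the median was −0.04, with 4 lower (12.9% of all genes) and 0 higher (21.3%) without overlap. HSPH1 gave 5263 and 4704 against 3299 and 3099.6 (−0.63).

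Genes that the fusion activates had 15 of 20 negative values and a median of −0.19 (−0.01 in replicate 1 and −0.44 in replicate 2). Without overlap 7 were lower (12.9% of all genes) and 2 higher (21.3%). PAX7, a transcription factor, gave 154 and 290 in control siRNA against 104 and 26.3 in DMSO (log2 −1.54, SE 0.47), and the neuropeptide receptor NPY5R gave 489 and 547 against 355 and 297 (−0.63). DKK2, a Wnt pathway modulator, gave 0.71. The list's median was 0.17 in TSA against EZH2 siRNA no.2. The Ewing marker list had a median of −0.09, and its member FLI1 gave 1157 and 1135 against 813 and 757 (−0.53). Whether this probe set reads FLI1, the EWS/FLI fusion transcript or both was not tested. CCND1 (cyclin D1) gave 7186 and 13927 against 4096 and 8113 (−0.79), with overlap. A second probe set of CCND1, with a mean signal of 6094, gave −0.39.

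Differentiation and matrix lists had medians of 0.15 for collagens and matrix (31 genes; 0.02 without control siRNA replicate 1), −0.06 for the TGF-beta pathway (21), 0.04 for growth cone and axon guidance (24; −0.03 with the arrays set to the same median) and 0.00 for receptor tyrosine kinases (27). The TGF-beta pathway inhibitor SMAD6 gave 260.4 and 578 in control siRNA against 137 and 219 in DMSO (log2 −1.06), and the metalloproteinase inhibitor TIMP3 gave 290.5 and 244 against 164 and 109.3 (−0.87). EPHA3, an ephrin receptor, gave 272 and 245 against 506 and 555 (0.97), and MARCKS, a protein kinase C substrate of the growth cone, gave 1111 and 605 against 1209 and 1846 (0.84). COL3A1 gave 191 and 182 against 341 and 603 (1.18). The guidance ligand SLIT2 and the collagen chain COL5A2 were higher in DMSO by 0.69 (SE 0.35) and 0.68 (SE 0.32), and the shared mediator SMAD4 gave −0.49. Other probe sets gave 0.31 for COL5A2, 0.13 for SMAD4, and 0.25 and 0.31 for EPHA3. Further ones of TIMP3 gave −0.60, −0.34 and −0.29, and of MARCKS 0.51, 0.90 and 0.39.

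Among the genes higher in DMSO the smallest p belonged to ERBB4, a neuregulin receptor of the receptor tyrosine kinase list. Its signal was 163 and 177 in control siRNA against 533 and 465 in DMSO, a log2 difference of 1.42 (SE 0.28, limma adjusted p = 1.00). EZH2 siRNA no.2 gave 447 and 445 and the unnumbered EZH2 siRNA 276, so the control siRNA arrays were the low ones; both control arrays were below all 7 others in 6.11% of genes and above them in 2.6%. A second probe set of ERBB4 gave 0.29. MAPK10, the neuronal kinase JNK3, behaved alike, with 106 and 95.4 against 294 and 275 (1.30, a second probe set −0.02), and BLVRB, biliverdin reductase B, gave 388 and 364 against 1300.0 and 994 (1.54).

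**Figure D4:**
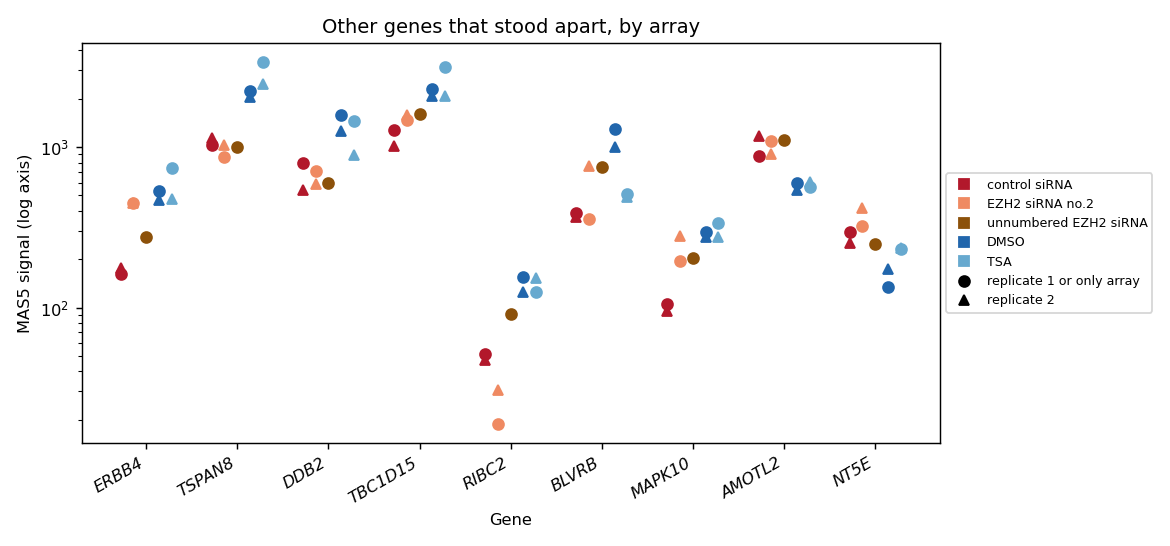
MAS5 signal (log axis) of 9 further genes on each of the 9 arrays, coloured by treatment; circles are replicate 1 or the only array, triangles replicate 2. TSPAN8, at 2050.5 to 3405, lies above the siRNA arrays (864 to 1143) in all 4 arrays of DMSO and TSA, whereas in ERBB4 the 2 control siRNA arrays (163 and 177) lie below all others.

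Other genes higher in DMSO without overlap and with small p were R3HDM2 (log2 1.09), SULT1A1 (a phenol sulfotransferase, 1.14), CRELD1 (1.22), BICD1 (a dynein adaptor, 1.21), OCEL1 (1.19), ECHDC2 (1.47), GOLGA8N (1.51) and PINLYP (1.07). SULT1A1 and GOLGA8N have near-identical copies in the genome, so which copy these probe sets read is uncertain. ALOX15B and PDHA2 gave 1.65 and 1.49 from control signals below the filter. Besides the metal genes, PON2 (paraoxonase 2) was lower in DMSO, with 1996 and 2553 in control siRNA against 967 and 1355 (−0.96). NUP50, a nuclear pore protein, gave 2238 and 2178 against 1067 and 1367 (−0.86), and DUSP7, a phosphatase of ERK, gave 328 and 512 against 198 and 209 (−0.93). Further probe sets of NUP50, with mean signals of 679 and 537, gave −0.37 and −0.75, and a dim one gave −0.13. CPA3 (−1.47) and SLC6A3 (−1.34) rest on DMSO signals of 10.5 to 49.5, below the filter.

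Averaging DMSO with TSA and the control siRNA with EZH2 siRNA no.2 gave 4 arrays against 4. The limma fit called 0 genes (0%) with a lowest adjusted p of 0.127, and listed 287 higher (3.15%) and 120 lower (1.32%) at an unadjusted p under 0.05. The 4 arrays did not overlap for 146 genes higher (1.6%) and 84 lower (0.923%). These shares were not set against a share expected by chance. The smallest p belonged to TSPAN8, a tetraspanin, at 1035 and 1143 in control siRNA, 2217 and 2050.5 in DMSO, 864 and 1023 in EZH2 siRNA no.2 and 3405 and 2463 in TSA, a difference of 1.28 (SE 0.18, limma adjusted p = 0.127). All 4 arrays without siRNA lay above all 4 with it.

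DDB2, a p53 target in DNA repair, was higher without siRNA by 0.94 (SE 0.22), with 793 and 541 in control siRNA against 1586 and 1262 in DMSO. TBC1D15, a Rab regulator, was higher by 0.83, and RIBC2, a protein of ciliary microtubules, by 1.44, with control signals of 46.9 and 51.6 just under the filter. MYO1F (1.29) rests on dim signals too, and AMBN (1.80) on the TSA arrays, at 1139 and 369 against 139 and 172 in DMSO. The lower side was led by MT1X, MT1E, SLC30A1, MT2A, AMOTL2, MT1H and MT1F, together with PTX3, a secreted pattern recognition protein, at 125 and 42.5 in control siRNA and 35.2 and 27.2 in DMSO (−1.31 over the 4 against 4).

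The differences carried over to the arrays not used in them to a limited degree. Of the 1942 genes higher in DMSO without overlap 59.2% were higher in TSA than in EZH2 siRNA no.2, against 51.4% of all genes. Of the 1177 lower genes 62.9% were lower there, against 48.6% of all. For genes at least 2-fold apart the shares were 66.4% of 110 and 80.0% of 35. Across the 9100 genes, which are not independent replicates, both contrasts correlated at r = 0.20 (Spearman 0.17), and the difference in replicate 1 correlated with that in replicate 2 at r = 0.13. The TSA contrast itself called 0 genes at an adjusted p under 0.05 (0%; limma, lowest adjusted p 0.396) and listed 173 at an unadjusted p under 0.05.

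**Figure D5:**
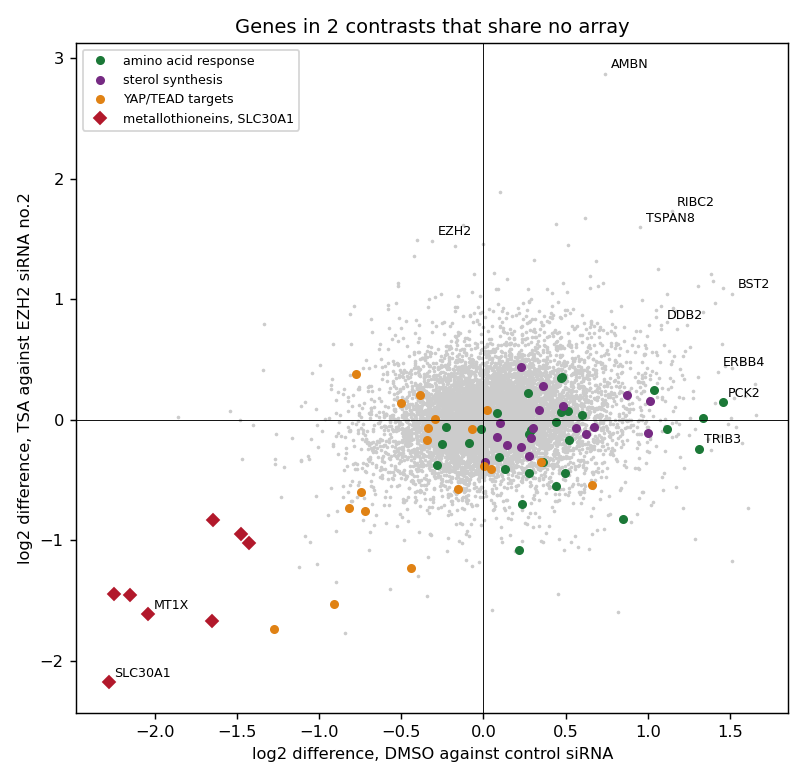
Log2 difference of each of 9100 genes for DMSO against control siRNA (x axis) and TSA against EZH2 siRNA no.2 (y axis), 2 contrasts that share no array; coloured points are gene groups, grey points all genes. Metallothioneins and SLC30A1 fill the lower left, from −2.28 to −1.43 on the x axis and −2.18 to −0.83 on the y axis, while amino acid and sterol genes spread to the right around 0 on the y axis.

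The test of the difference between both contrasts called 0 genes (limma, lowest adjusted p 0.999, 163 at an unadjusted p under 0.05). Among the genes with the smallest p there, ASPH, a hydroxylase of the endoplasmic reticulum, had a log2 difference of 0.67 for DMSO against control siRNA and −0.73 for TSA against EZH2 siRNA no.2, and IL7R and OPRK1 gave 1.61 and 0.82 against −0.73 and −1.60 from dim signals. On the other side stood EZH2 (−0.31 against 1.48), which EZH2 siRNA no.2 targets, DYNC1LI2, a dynein chain (−0.52 against 1.14), and TMEM50A (−0.40 against 1.49). The values of the latter 2 were lowest in the EZH2 siRNA no.2 arrays, at 355 to 465 for DYNC1LI2 and 266 to 678 for TMEM50A.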

How the data were processed

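RNA was hybridised to 9 Affymetrix human arrays, of which 4 form the comparison. The deposited values are intensity (MAS5 signal), which the authors computed with MAS5, per the submitters' processing notes. Its version, its scaling and detection calls are not given in the sources used here.

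Signals were turned into log2(signal + 25.1), the added value being the 20th percentile of all signals. Of 22283 probe sets, 68 are controls, 19065 name one gene, 1043 several and 2107 none by the platform annotation, and those naming one gene were kept. Probe sets with a mean signal under 53.3 (30th percentile) were dropped, which left 13665, and the brightest probe set stood for each of 9100 genes. Values of a gene are from this probe set unless another is mentioned, and other probe sets can give smaller or opposite differences. A model with 1 mean for each group was fitted over the 9 arrays in R 4.3.3 with limma 3.58.1 (eBayes with trend, 4 residual and 7.40 prior degrees of freedom), two-sided, with Benjamini-Hochberg adjustment over 9100 genes and a threshold of 0.05. The script was tested on simulated data.

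The members and the 33 gene lists (832 genes, 675 tested, 64 below the filter, 93 not named here) were chosen with earlier results of these data known. Named genes were EZH2, up to 14 each way for the main contrast and 8 for the arms of 4, each without overlap and with the smallest p. Also named were 3 each way for the difference, by smallest p without a rule on overlap, and 2 or more of each list by smallest p. Others were chosen after their values were seen. A count without overlap means that every array of one group exceeds every array of the other. Alternatives were other pseudocounts, filters, normalizations, probe set rules, blocks and each array left out in turn. Promoters were 250 bases from RefSeq; 7468 tested genes had one.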

Additional observations from a re-analysis of the deposited data

Results flagged for a closer look

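For the gene lists below, the medians within replicate 1 and within replicate 2 had one sign for DMSO against control siRNA and the opposite sign for TSA against EZH2 siRNA no.2, 2 contrasts that share no array. The difference of the medians over both replicates was 0.5030 for the amino acid response (ATF4 targets), 0.5589 for the unfolded protein response of the endoplasmic reticulum and 0.3841 for sterol synthesis and uptake. It was 0.0773 for glycolytic enzymes, −0.3547 for genes that the fusion activates and −0.0509 for growth cone and axon guidance, whose medians over both replicates had the same sign. The difference was not tested for any list, and 32 lists with tested genes were looked at.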

How the results depend on the processing

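No gene passed an adjusted p of 0.05 in DMSO against control siRNA under any setting run, where the lowest adjusted p ran from 0.325 to 1.00. The count at an unadjusted p under 0.05 was 418; it was 666 with a block taken from the hybridisation controls, which divide these arrays by replicate number, 668 with the replicate number as a block, and 224 to 519 with each array left out in turn, the lowest without DMSO replicate 1. For the arms of 4 arrays the count was 407; it was 648 with either block and 250 to 923 with each array left out, the lowest without DMSO replicate 1 and the highest without TSA replicate 2. Each control siRNA array correlated more with the DMSO array of its own number (r = 0.971 and 0.972 across probe sets) than with the other control array (0.964), and the deviations of control siRNA and DMSO correlated at r = 0.22. This is a hint from the data that a replicate number marks shared handling; no label says so, and 2 pairs are too few to settle it. The YAP/TEAD median of −0.34 was −0.40 with the 5th percentile as pseudocount, −0.42 after quantile normalization, −0.44 with the same median on each array and −0.49 to −0.28 with each array left out. The metallothionein and NRF2 median (−0.11) was −0.31 (without DMSO replicate 2) to −0.0061 (without DMSO replicate 1) and the amino acid median (0.40) was 0.18 (without control siRNA replicate 2) to 0.53 (without control siRNA replicate 1). The cause of these shifts was not tested. Of 98 named genes 96 kept their direction in every setting; with each array left out PECAM1 ran from −0.26 to 0.11 (without control siRNA replicate 2) and SNAP25 from −0.25 (without DMSO replicate 2) to 0.59. The 2 arrays in each group limit what these data can show.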
